A study of Homo sapiens with 6 samples.

Results

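The opioid receptor genes OPRM1, OPRD1, OPRK1 and OPRL1 were examined in 1 merged transcript assembly of EndoC-βH1 cells, a line of human beta cells, the insulin-producing cells of the pancreas. These 4 genes, of 25211 gene names in the file, held 42 of its 55083 transcript models. A model belonged to a gene when its gene name tag was that symbol. The family was chosen by the number of joined models at OPRM1, 13. A joined model is one that the assembler wrote in class j: it shares splice junctions with a RefSeq transcript, but its whole chain of introns is that of none. Since the gene was picked on that count, the count is a description and carries no test. The study compared 3 libraries of cells in which a lentiviral short hairpin RNA against the promoter of INS, the insulin gene, was switched on by 7 days of doxycycline with 3 negative control libraries of the same transduced line without doxycycline. The hairpin construct was thus carried by both groups and doxycycline by the induced group alone. The merged assembly has no abundance and names no library. Levels of the receptors, markers of the cell line and the difference between the groups were therefore not analysed here, and no value below has a replicate.

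Opioid receptors are G protein-coupled receptors with a chain that crosses the membrane several times, an N-terminus outside the cell and a C-terminal tail inside it. They couple to inhibitory G proteins, which lower cyclic AMP, open potassium channels and close calcium channels, and the tail is where receptor kinases and arrestins act. OPRM1 encodes the mu receptor, the main target of morphine, OPRD1 the delta receptor for enkephalins, OPRK1 the kappa receptor for dynorphins, and OPRL1 the nociceptin receptor. Many splice variants of OPRM1 are known, most of which exchange the tail, and some of which start at a promoter far upstream. Opioid peptides and their receptors have been described in pancreatic islets.

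OPRM1 had 36 models, and the other receptors had 6 in all. On hg19, OPRM1 spanned chromosome 6 from 154331631 to 154568001 on the plus strand, 236371 bases, with 23 RefSeq transcripts and 13 joined models. OPRD1 (chromosome 1, 29138654 to 29190208, plus strand) had 1 RefSeq transcript, OPRK1 had 2, and OPRL1 (chromosome 20, 62711471 to 62731996, plus strand) had 3. None of the last 3 genes had a joined model.

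The OPRM1 models ended in 10 different last exons, called tails here and numbered 5′ to 3′ by their acceptor sites. All but tails 1 and 9 were preceded in every model by the 521-base exon that ends at position 154412607, in some with a 109-base internal exon between them. This exon ends on a whole codon of the receptor frame, so a tail spliced directly to it starts with a whole codon. The last 24 bases of that exon and the coding part of the tails are shown because the joined models differ from each other mainly here. They run from the splice site to the stop codon, which is in capitals, on the plus strand of chromosome 6 in GRCh37. Tail 1 is the part read when the splice site at the end of the 521-base exon is not used.
End of the 521-base exon: acagtggatagaactaatcatcag
Tail 1: gtacgcagtctcTAG
Tail 2: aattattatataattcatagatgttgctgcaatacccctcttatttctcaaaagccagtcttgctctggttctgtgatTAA
Tail 3: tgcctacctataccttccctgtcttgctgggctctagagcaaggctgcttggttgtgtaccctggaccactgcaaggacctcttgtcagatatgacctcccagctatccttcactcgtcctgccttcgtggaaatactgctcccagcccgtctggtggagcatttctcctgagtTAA
Tail 4: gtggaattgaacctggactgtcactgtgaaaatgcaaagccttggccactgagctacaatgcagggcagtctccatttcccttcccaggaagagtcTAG
Tail 6: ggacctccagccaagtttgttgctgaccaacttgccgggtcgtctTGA
Tail 7: agagaaagaagacagaaatctgactggTAA
Tail 8: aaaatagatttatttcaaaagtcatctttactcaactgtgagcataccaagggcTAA
Tail 9: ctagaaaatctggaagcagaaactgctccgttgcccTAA
Tail 10: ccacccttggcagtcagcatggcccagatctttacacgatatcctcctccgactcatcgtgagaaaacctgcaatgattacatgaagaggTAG
Tail 5 (not listed) adds 1 codon and a stop, agcTGA. The 10 tails added 6 to 177 coding bases, stop included. Tail 9, which holds 39 of them, belongs to NM_000914, the RefSeq transcript of the classical 400-residue mu receptor. Tails 4 and 5 lie in overlapping exons with a common end at 154428787, and tails 6 and 7 in overlapping exons with a common end at 154430153, yet within each pair the acceptor sites, and hence the codons read, are different.

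The 36 models began at 5 start positions, each a start site group with a tss_id of its own. Group 1 began at 154331631. Group 2 began 28606 bases further on, group 3 at 28915, group 4 at 76011 and group 5 at 79266 bases from the first. In 4 of the 5 transcripts of group 2 the first exon has 733 bases and holds the start codon of the classical receptor. In the other, NM_001285524, it has 204 bases and ends before that codon. The first exon of group 3 has 424 bases and holds it. Group 4 begins with an exon of 1279 or 1298 bases in the intron that follows the start codon. Group 5 begins in the same intron, just ahead of the second coding exon. Of the RefSeq transcripts, 3 belonged to group 1, 5 to group 2, 11 to group 3, 2 to group 4 and 2 to group 5.

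All 13 joined models began at 154331631, in group 1. Groups 2 to 5 had none. In RefSeq the upstream group ended in tail 9 alone, in all 3 transcripts. With the joined models it ended in 8 of the 10 tails, and tails 3 and 4 alone stayed without an upstream start. The joined models therefore placed the farthest promoter of the gene before 3′ ends that RefSeq lists only behind the inner starts. Among all genes with at least 5 joined models, these carried a single tss_id in 63 of 160 (39.4%), so a single start is common. Among the 15 such genes with at least 5 start site groups, OPRM1 was 1 of 2 with a single one (13.3%, exact Clopper-Pearson 95% interval 1.66 to 40.5%, which covers counting error only). This comparison was chosen after the pattern was seen.

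**Figure D1:**
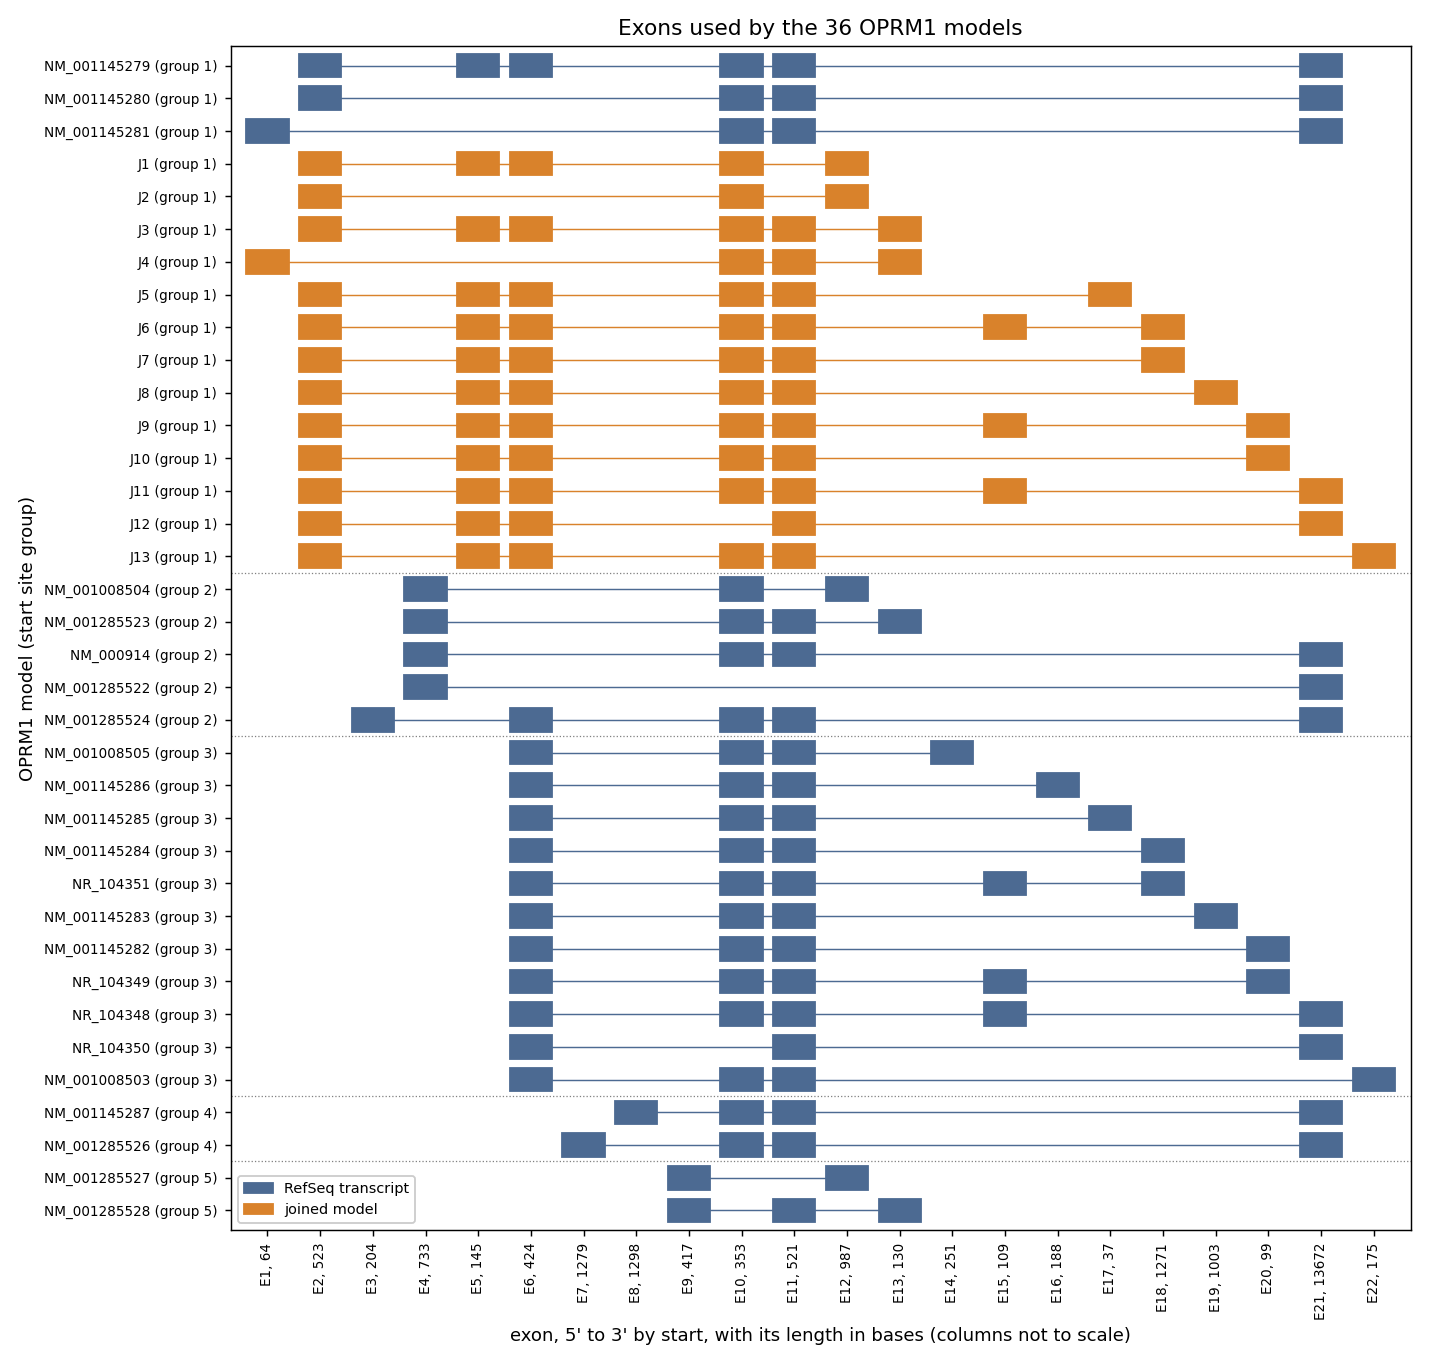
Exons used by each OPRM1 model. Rows are models with their start site group, columns are the 22 distinct exons with their lengths in bases (not to scale), blue boxes are RefSeq transcripts and orange boxes joined models. The 13 orange rows all begin in exons E1 or E2, at the upstream start, and spread over 8 last exons.

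The upstream start was followed by 3 kinds of 5′ part. In NM_001145279 the 523-base first exon was spliced to a 145-base exon, which was joined to a 424-base exon by removal of a 105-base intron (154360441 to 154360545). In NM_001145280 the 523-base exon was spliced straight to the 353-base second coding exon. In NM_001145281 the first exon was cut to 64 bases and then spliced to that same exon. Of the 30 possible pairs of these 5′ parts with the 10 tails, RefSeq held 3 and the file 12. The NM_001145279 form was present with 8 tails, the NM_001145280 form with tails 1 and 9, and the NM_001145281 form with tails 2 and 9. Counting first exons by their donor site over the whole gene gave 7, and 70 possible pairs with the tails. RefSeq held 17 of them, the joined models 9, and 8 of these 9 were not in RefSeq.

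**Figure D2:**
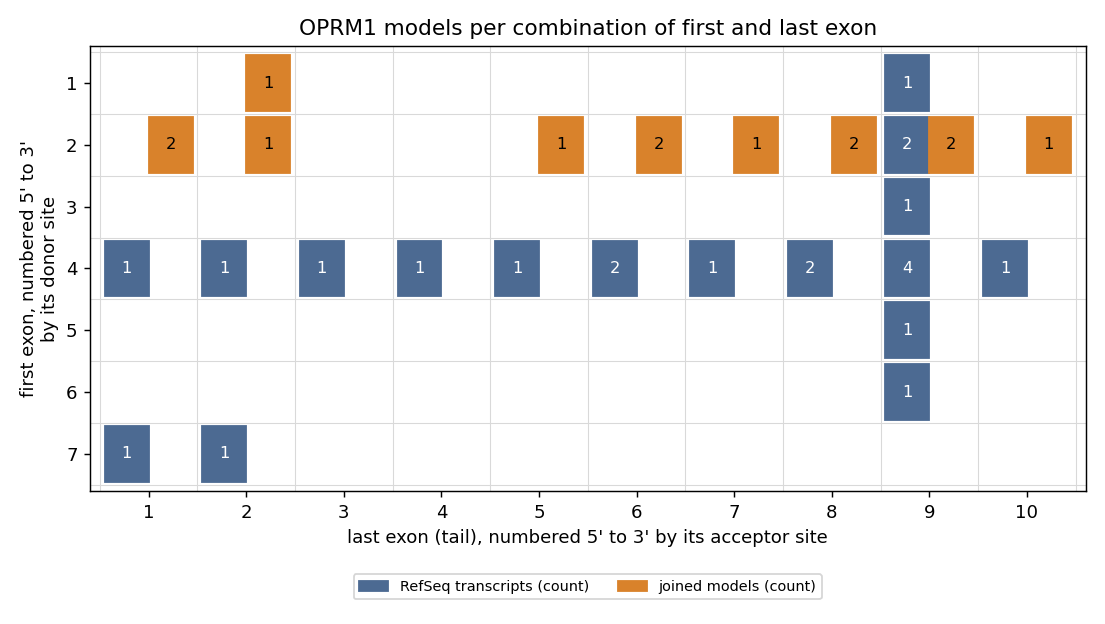
Number of OPRM1 models for each pair of first exon (rows, numbered 5′ to 3′ by donor site) and tail (columns), RefSeq in blue and joined models in orange. Rows 1 and 2 are the 64-base and 523-base exons of the upstream start, where RefSeq fills column 9 only. Row 4, the exon of the classical start codon, is filled by RefSeq in all 10 columns.

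The joined models, called J1 to J13 in the order of their tails, were each set beside the RefSeq transcript of another start group that shared the longest 3′ part with it. For J5 to J13, the RefSeq transcript with the same 3′ part was a member of group 3, a different one each time. Each of these 9 joined models was longer than that transcript by 668 spliced bases, which are the 523-base and the 145-base exons. All 11 RefSeq transcripts of group 3 begin at 154360546, exactly the base at which the 424-base exon begins after the 105-base intron. The 9 models thus equal group 3 transcripts with the upstream exons of NM_001145279 added in front. The remaining 2 transcripts of group 3, NM_001008505 (tail 3) and NM_001145286 (tail 4), had no such partner.

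Of these 9 models, J5 had tail 5 (2003 spliced bases), J7 tail 6 (3237 bases) and J8 tail 7 (2969 bases). J10 had tail 8 (2065 bases) and J13 tail 10 (2141 bases). J6, J9 and J11 held in addition a 109-base internal exon (154415345 to 154415453) and then tails 6, 8 and 9. J12 left out the 353-base exon and ran to tail 9. Before the internal exon the frame is that of the receptor. Its coding part is printed with the stop in capitals, since 3 joined and 3 RefSeq models end their frame there.
Internal exon: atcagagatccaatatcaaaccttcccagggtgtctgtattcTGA
J1 and J3 had the NM_001145279 form of the 5′ part with tails 1 and 2. J2 was the NM_001145280 form with tail 1, and J4 the NM_001145281 form with tail 2.

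The joins used known pieces alone. All 13 models had only introns that occur in a RefSeq transcript of the gene, and all 13 ended at the end of a RefSeq transcript. The gene had 23 distinct introns, 18 of them used by joined models. All 23 occur in RefSeq transcripts and begin with GT and end with AG, which describes the annotation and not the joins. In 11 models the chain split into 2 stretches, each taken from 1 RefSeq transcript. J1 and J2 had chains contained in 1 RefSeq transcript, and differed from it by ending in the 987-base exon of tail 1. In 9 of the 11, the exons that could belong to either parent, between the last intron found only on the 5′ side and the first found only on the 3′ side, measured 1298 bases, the sum of the 424-base, 353-base and 521-base exons. In J4 they measured 874 bases and in J12 424 bases. Of the 5237 joined models of the file, 4221 had such a stretch. A chain made of 2 stretches of RefSeq introns is thus the usual case and not particular to OPRM1. The share of all joined models that end at the end of a RefSeq transcript is not given here. Over the 4221 models, the median stretch was 678 bases and the quartiles 405 and 1210, and 22.8% had at least 1298 bases. The length of the sequencing reads is not given in the sources used here, so whether any read spanned both sides of a join was not tested.

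Reading frames were read from the genome sequence. GENCODE release 44 places the start codon of 12 of its OPRM1 transcripts at 154360680, called the main start codon here. In the NM_001145279 form, the longest reading frame begins instead at 154360296, at the first base of the 145-base exon, and stays in frame with the main start codon 93 codons later. The first 30 bases from each start codon are shown with the ATG in capitals, followed by the junction of the 145-base and 424-base exons that links them, with the 15 bases after the junction in capitals.
Upstream start codon, chr6:154360296-154360325: ATGtgtttgcacagaagagtgcccagtgaa
Main start codon, chr6:154360680-154360709: ATGgacagcagcgctgcccccacgaacgcc
Junction: agcggtgcggggcagCCAGGACTGGTTTCT
The 523-base first exon lies wholly before this frame. The frame of NM_001145279 had 493 amino acids, that is 93 more than the 400 of the classical receptor. NM_001285524 of group 2, in which the same 105-base intron is spliced out, had the same frame. The 400 are counted from the main start codon, whereas the longest frame of NM_000914 had 462 amino acids, from an ATG at 154360494.

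The same 93 residues preceded the main start codon in 11 of the 13 joined models. In J12, which skips the 353-base exon, the frame then leaves that of the receptor. From the upstream start codon, J5 had 482 amino acids, against 389 in the RefSeq transcript with the same tail. J7 had 496 against 403, J8 490 against 397, J10 499 against 406 and J13 511 against 418. J13 had the longest frame of all 36 models. Counted from the main start codon instead, J13 had 418, and the RefSeq transcripts NM_001008505 and NM_001145286 had more, 446 and 420. J1 and J3 had 485 and 507, against 392 and 414 from the main start codon of NM_001008504 and NM_001285523. The last 2 transcripts have longer frames of their own, 454 and 476 amino acids. These begin at the ATG at 154360494, which lies in frame within the part that is removed in the upstream form. Set against those, the frames of J1 and J3 were 31 residues longer. All 13 joined models used the same stop codon as the RefSeq transcript with the same 3′ part.

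The other 2 joined models had short receptors. J2 had a frame of 292 amino acids that begins at 154410971, in the 353-base exon, and lacks the residues before residue 101 of the classical receptor. The same frame is that of NM_001285527 of group 5. J4 had a frame of 333 amino acids that begins in the 64-base first exon, at 154331648, and NM_001145281, with the same start and tail 9, had 319. As background, mu receptor variants of this kind, which lack the first membrane-crossing helix, have been described for the upstream promoter. J2 was the only joined model whose frame was that of a RefSeq transcript. The 12 others had frames found in none, 10 distinct ones, because J6, J9 and J11 shared theirs.

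An early stop, one more than 50 bases before the last exon junction, was present in 4 joined models. In J6, J9 and J11 it lay in the 109-base internal exon, 64 bases before the junction, after 495 amino acids. J12 skips the 353-base exon, which is not a whole number of codons, and so reads the next exon out of the receptor frame. Its frame ended after 279 amino acids, 250 bases before the last junction. Transcripts with such stops are often degraded by nonsense-mediated decay. The RefSeq counterparts of these 4 models are the 4 transcripts of the gene with a non-coding accession, NR_104351, NR_104349, NR_104348 and NR_104350, with frames of 402, 402, 402 and 186 amino acids and the same stops. None of the 19 transcripts with a protein-coding accession had an early stop. Frames were read for the 4 receptor genes alone. The shares of all joined models with an early stop or with a frame absent from RefSeq are thus not given here.

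**Figure D3:**
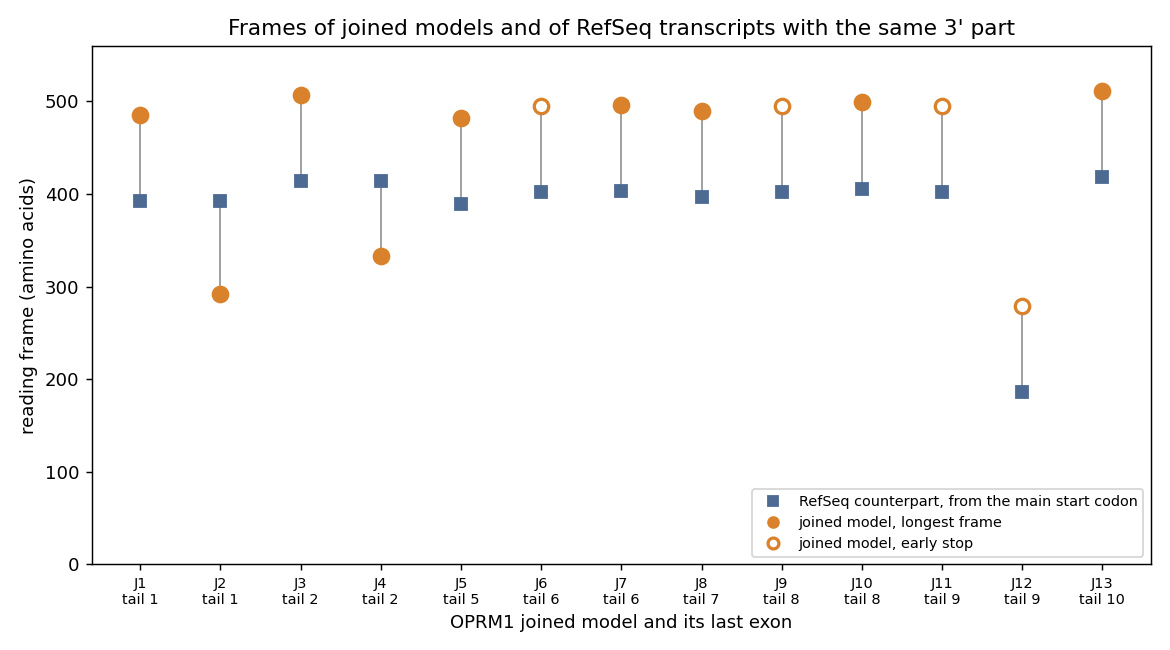
Reading frames in amino acids of the 13 joined OPRM1 models (orange circles, open where the stop is early) and of the RefSeq transcript with the same 3′ part, counted from the main start codon (blue squares). In 11 models the circle lies 93 residues above the square, and in J2 and J4 it lies below.

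The p_id tag of the file numbers distinct coding sequences. The 19 protein-coding RefSeq transcripts of OPRM1 carried 16 p_id values, and their longest reading frames were 16 distinct ones. One value was shared by NM_001145279 and NM_001285524, from groups 1 and 2. Another was shared by NM_001145280, NM_001285526 and NM_001145287, from groups 1 and 4, all with a frame of 300 amino acids from 154410971. For these, different promoters were thus paired with 1 protein. No joined model carried a p_id, so a summary of this assembly by p_id would leave all 13 out, whereas one by tss_id would add them to the 3 RefSeq transcripts of group 1.

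GENCODE release 44, mapped to GRCh37, listed 23 OPRM1 transcripts. It held the intron chains of 19 of the 23 RefSeq transcripts and of 0 of the 13 joined models. The group 3 chains that it held begin in GENCODE at 154360591, 154360610 or 154360630, and not at 154360546. GENCODE has 4 transcripts with the upstream start, of which 3 have the chains of NM_001145279, NM_001145280 and NM_001145281 and end in tail 9. The other has 3 exons and stops within the 353-base exon. An upstream start before any other tail was thus in neither annotation. Joined models are by definition absent from RefSeq, so the contrast with RefSeq transcripts is partly fixed by the choice.

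Tail 10 is the one last exon of OPRM1 that lies across another gene. It lies 155219 bases beyond the 521-base exon, inside IPCEF1, a gene on the opposite strand (154475618 to 154677900). Of its 175 bases, 68 (154567827 to 154567894) are also exon of IPCEF1. The cDNA kits named in the labels do not mark strand, so unspliced reads from those bases cannot be told apart. IPCEF1 had 3 RefSeq transcripts and no joined model.

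OPRL1 had 2 start site groups 4898 bases apart and 1 p_id. Its transcripts NM_000913, NM_182647 and NM_001200019 have 4, 5 and 6 exons and 268, 419 and 412 bases before the start codon. All 3 encode the same frame of 370 amino acids, so they differ only ahead of it. The first OPRL1 start lies 147 bases from that of RGS19 on the opposite strand, a regulator of G protein signalling, and LKAAEAR1, also on the opposite strand, lies in the first intron of NM_000913 and NM_182647. OPRK1 (chromosome 8, 54138276 to 54164257, minus strand) had 1 start site group and 2 p_id values. NM_000912 had a frame of 380 amino acids. NM_001282904 held an extra exon of 174 bases (54155299 to 54155472). In that exon the frame from the main start codon ends after 116 amino acids, 433 bases before the last junction. The longest frame of NM_001282904 was 291 amino acids from an ATG in the next exon. OPRD1 had 3 exons and a frame of 372 amino acids. GENCODE held the intron chains of all 6 transcripts of these 3 genes.

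The 4 genes shared the layout of their coding exons. The first coding exon carried 290 coding bases in OPRM1, 227 in OPRD1, 257 in OPRK1 and 233 in OPRL1. The second measured 353, 350, 353 and 356 bases in that order. In each gene the first junction falls after the second base of a codon, and the second junction after the first base. The transcripts of the other 3 genes finish the receptor in the third coding exon, with 542, 533 and 524 coding bases. In NM_000914 of OPRM1 that exon has 521 and is followed by tail 9, whereas the 4 models with tail 1 finish the receptor within a 987-base form of that exon. The encoded receptors are alike, with 62.3% identity between OPRD1 and OPRK1 over 358 aligned residues, 61.8% between OPRM1 and OPRD1, 60.9% between OPRM1 and OPRK1 and 53.8 to 54.5% between OPRL1 and the others.

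**Figure D4:**
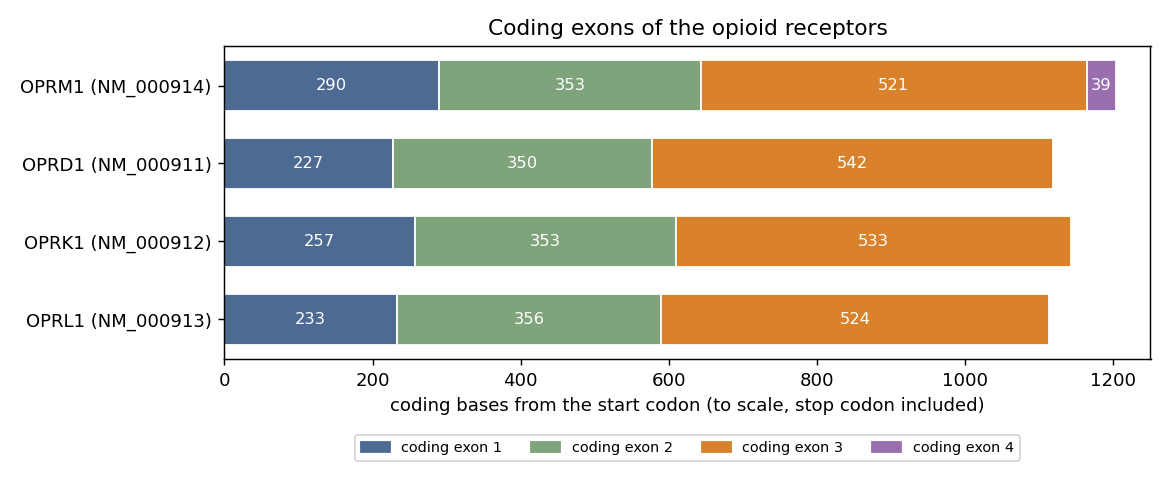
Coding bases per exon in 1 RefSeq transcript of each opioid receptor gene, from the main start codon to the stop, drawn to scale. The second coding exon measures 350 to 356 bases in all 4 genes, and among these 4 transcripts that of OPRM1 alone has a further coding exon, of 39 bases.

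The ATG at 154410971, which opens the frame of J2 and of the 300-residue forms, had a counterpart in each gene of the family. In all 4 genes the second coding exon holds an ATG in the receptor frame at its bases 11 to 13. It is residue 101 of OPRM1, 80 of OPRD1, 90 of OPRK1 and 82 of OPRL1, and the frames from it have 300, 293, 291 and 289 amino acids. Models whose longest frame starts there exist for OPRM1 and OPRK1 and not for the other 2 genes. The first junction is printed for 3 genes, with the 15 bases after it in capitals, so that the ATG at bases 11 to 13 can be seen.
OPRM1, chromosome 6: gtatgtgattgtcagATACACCAAGATGAA
OPRD1, chromosome 1: gttcggcatcgtccgGTACACTAAGATGAA
OPRL1, chromosome 20: gtacgtcatcctcagGCACACCAAAATGAA
Over these 30 bases, OPRM1 had 22 in common with OPRD1 and 23 with OPRL1, and the last 2 had 23 in common. At the second junction, windows of the same size had 5 to 7 bases in common, position by position without gaps.

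Over the whole file, 2677 of 21516 gene names with a multi-exon RefSeq transcript (12.4%) had a joined model, and 17 (0.079%) had at least 13. On chromosomes 1 to 22, X and Y, 5 genes had more joined models than OPRM1, and 1 other gene had as many. OPRM1 was also rich in RefSeq transcripts: 6 genes had more than its 23. Of 38 genes with at least that many, haplotype copies included, 21 (55.3%) had a joined model, and on chromosomes 1 to 22, X and Y alone 8 of 9 did. The 3 receptor genes without one had few RefSeq transcripts. A joined model was present in 0.719% of genes with 1 RefSeq transcript, the number OPRD1 has, in 5.99% of those with 2, as OPRK1, and in 33.8% of those with 3, as OPRL1. Absence at these genes is thus the usual case for their transcript number.

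**Figure D5:**
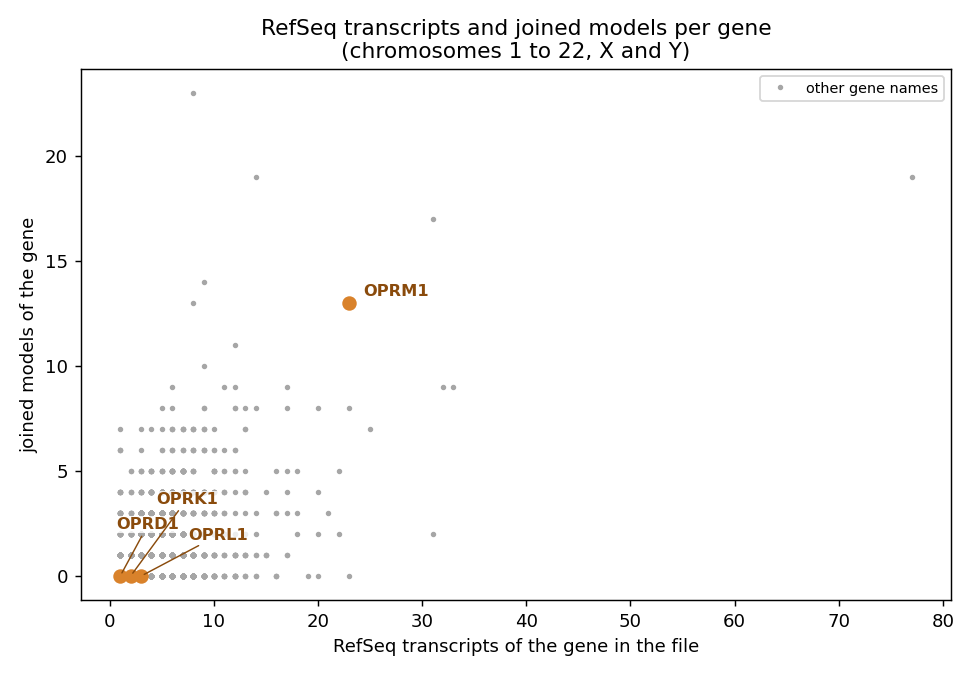
RefSeq transcripts (x axis) and joined models (y axis) per gene name on chromosomes 1 to 22, X and Y, with 1 point per gene, many of which overlap. OPRM1 lies at 23 and 13, and OPRD1, OPRK1 and OPRL1 at 1 to 3 transcripts and 0 joined models.

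OPRM1 had 23 RefSeq transcripts, 13 joined models, 7 first donor sites and 10 last acceptor sites. Other genes were set beside it in these counts on chromosomes 1 to 22, X and Y. The counts include the joined models by which OPRM1 was chosen, and nearest sums for other genes were not computed. Whether OPRM1 stands apart was therefore not tested. The nearest by the sum of absolute differences were DISC1 (23, 0, 1 and 10; sum 19), CACNA1C (23, 8, 1 and 1; sum 20), IKZF1 (17, 9, 4 and 3; sum 20), PGAP2 (22, 5, 5 and 1; sum 20) and ANKS1B (12, 11, 5 and 4; sum 21). Of these, only DISC1 had as many last exons, and none had as many first exons.

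The list of other genes of opioid signalling had a share of genes with joined models near that of all genes. In this list of 48 genes, all present in the file, 45 had a multi-exon RefSeq transcript, and 6 of these (13.3%, exact 95% interval 5.05 to 26.8%) had a joined model, against 12.4% of all genes. The median was 0 joined models in the list and over all genes. None of the 4 ligand precursor genes, POMC, PENK, PDYN and PNOC, had one. The 8 genes of G protein subunits had none, nor had the 7 multi-exon genes among the nearest receptor relatives, such as the somatostatin receptors. Of 11 genes for receptor kinases, arrestins and RGS proteins, 3 did: ARRB2, which encodes an arrestin that binds activated receptors, had 2, and RGS4 and RGS7, which encode proteins that speed the switching-off of G proteins, had 1 each. Of 11 effector genes, 3 had 1 each: CACNA1A, a calcium channel gene, and ADCY1 and ADCY6, which encode adenylyl cyclases.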

How the data were processed

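RNA of 6 EndoC-βH1 libraries, 3 per group by their titles, was sequenced by the authors. Per the submitters' processing notes, TopHat2, Cufflinks and hg19 were used in making the assembly. Tool versions, settings and filters were not stated in the labels. The deposited file holds 555595 exon lines of 1 merged assembly, and per its own columns the numbers are the first and last base of each exon, with the other fields as text tags. It gives no score, so depth is unknown and nothing could be tested. The planned expression fit was not run.

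Models were rebuilt in Python 3.11.15 (numpy 2.4.6, scipy 1.17.1, Biopython 1.88, matplotlib 3.10.9). Joined models are those of class j, and reference transcripts those of class = with a RefSeq name. Sequences and frames were read from GRCh37, which hg19 represents, on chromosomes 1, 6, 8 and 20. A frame is the longest from ATG to a stop. Chains were compared with GENCODE release 44, requiring every intron to be identical. Proteins were aligned globally (BLOSUM62, gap penalties 11 and 1), and identity was taken over aligned residues. Functions were tested on made-up models with known answers. Members and lists were chosen with earlier results of these data known. Named were the members, genes of the list with a joined model, and the 5 genes nearest OPRM1 in counts. The list included OPALIN, which is not known to act in opioid signalling and had no joined model.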

Additional observations from a re-analysis of the deposited data

How the results depend on the processing

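No paired analysis was possible because abundance per library is missing from the assembly: neither the replicate block nor the leave-one-out fits could be run. Counts of joined models and RefSeq transcripts per receptor gene were the same on chromosomes 1 to 22, X and Y, by distinct intron chain and, for joined models, by locus. A count or share was taken as moved past a factor of 1.5 and a frame at any change in length. By that measure 24 of 108 alternatives moved a value, 17 of them frames. Within the factor, the first exons of OPRM1 went from 7 to 5 by exact start or tss_id and its last exons from 10 to 7 by exact end. The 17 frames, 11 in joined models and 6 in RefSeq transcripts, are shorter when read from the main start codon, an alternative chosen after seeing the data. The first exons of OPRK1 became 2 when told apart by exact start. Pairs of first and last exon present at OPRM1 fell from 25 to 16, and new ones in joined models from 8 to 5, when told apart by exact start and end. By start site group and acceptor, 22 pairs were present and 7 were new. Among genes with at least 3 RefSeq transcripts, 44.4% had a joined model, against 12.4%. The share with at least as many as OPRM1 was 0.0326% on chromosomes 1 to 22, X and Y, which leaves out haplotype copies, and 23.7% among genes with at least as many RefSeq transcripts. With chains allowed to lie within a longer GENCODE chain, 2 joined OPRM1 models (J1 and J2) had one, against 0. The early stops numbered 4 under each alternative. Without read counts, nothing here shows which models the cells expressed.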
